A study of Mus musculus with 6 samples.

Results

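Mest, Sfrp5, Bmp3, Npr3, Nnat, Peg3, Cdkn1c and Plagl1 were followed in fat of WT mice and of mice without cavin-3 (KO), as genes that vary with fat expansion between genetically identical mice or that are imprinted. All 8 genes were measured, out of 19937 genes with a probe set of a single gene symbol, and each had 1 such probe set on the Affymetrix Mouse Gene 1.0 ST array. The study hybridised RNA of 3 WT and 3 cavin-3 KO mice, which were littermates 10 weeks old and fasted for 6 hours on standard chow. The KO mice, bred from heterozygous parents, carry a germ line allele in which a lacZ/neo cassette stands in for the cavin-3 gene. It was made in C57BL/6N embryonic stem cells, and the line used for the arrays came from 1 clone. The sources used here do not name the fat depot, and the weight and fat mass of these 6 animals were not analysed here.

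The study's methods state that males alone were analysed, but 2 arrays had the Xist and Uty levels of female tissue. The log2 intensity of Xist, a long RNA of the inactive X, reached 11.14 in WT replicate 2 and 11.34 in KO replicate 3, where the other 4 arrays lay between 3.70 and 6.30. The Y-linked gene Uty had 3.36 and 3.21 there and 7.89 to 8.14 elsewhere. Median intensities were close, 67.1 to 70.8 over the 6 arrays, and cavin-3 itself, at 10.05 to 10.90 in WT and 6.78 to 7.12 in KO, matched the genotype labels. Adipocyte markers were present on every array, with a mean log2 intensity over 12 genes of 11.90 to 12.10. In whole tissue, fewer cells of a type and less RNA per cell cannot be told apart.

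Mest is the mesoderm specific transcript, a hydrolase-fold protein of the endoplasmic reticulum that is read from the paternal copy, and its RNA is known to be high in growing fat and to differ widely between inbred littermates. Sfrp5 is a secreted decoy for Wnt ligands made by adipocytes, Bmp3 a secreted member of the TGF-beta family that opposes other BMPs, and Npr3 the receptor that clears natriuretic peptides, hormones that drive lipolysis. Nnat, Peg3 and Plagl1 are, like Mest, expressed from the paternal copy, whereas Cdkn1c is expressed from the maternal copy, and imprinted genes as a class are known for control of growth and energy stores. Nnat encodes a small membrane proteolipid, Peg3 and Plagl1 zinc finger proteins, and Cdkn1c an inhibitor of cyclin-dependent kinases.

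Mest, Nnat and Sfrp5, which shared their lowest arrays as described below, are shown with the 250 bases before their start site, from RefSeq (GRCm38.p6). Each CG dinucleotide is in capitals, since the imprinting of genes such as Mest and Nnat is laid down as CG methylation. Sfrp5 is not among the imprinted members, and methylation was not measured. RefSeq start windows were held for 6 of the 8 genes. The Mest window lies at chr6:30737800-30738049 on the plus strand, that of Nnat at chr2:157559828-157560077 on the plus strand and that of Sfrp5 at chr19:42202253-42202502 on the minus strand.
Mest: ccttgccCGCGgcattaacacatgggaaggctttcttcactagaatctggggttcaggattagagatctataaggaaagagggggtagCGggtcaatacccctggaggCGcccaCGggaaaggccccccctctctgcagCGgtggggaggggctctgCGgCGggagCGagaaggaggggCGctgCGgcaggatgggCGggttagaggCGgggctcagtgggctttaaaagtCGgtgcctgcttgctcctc
Nnat: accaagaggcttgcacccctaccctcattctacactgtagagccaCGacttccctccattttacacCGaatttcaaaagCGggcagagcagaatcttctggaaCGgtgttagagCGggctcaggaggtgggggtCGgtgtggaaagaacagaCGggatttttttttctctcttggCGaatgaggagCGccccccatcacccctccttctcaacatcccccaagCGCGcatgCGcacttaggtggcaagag
Sfrp5: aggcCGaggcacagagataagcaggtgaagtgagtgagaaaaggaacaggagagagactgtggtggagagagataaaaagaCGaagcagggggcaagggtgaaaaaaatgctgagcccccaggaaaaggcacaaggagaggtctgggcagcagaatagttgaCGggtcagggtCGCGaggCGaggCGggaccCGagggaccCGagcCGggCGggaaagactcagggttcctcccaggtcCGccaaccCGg

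These windows held 14, 12 and 13 CG dinucleotides, and 29.4%, 33.5% and 31.5% of the 32851 RefSeq windows of that length held at least as many. A more distal Mest start in RefSeq, at chr6:30733256-30733505, held 7. Among the other members Plagl1 had 19, Peg3 8 and Npr3 6, against a median of 6 over all windows.

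Mest varied strongly between animals, with close means of 10.37 in WT and 10.35 in KO and a wide interval on their difference, given below. Its log2 intensity was 10.48, 9.67 and 10.96 in WT replicates 1 to 3 and 10.85, 10.67 and 9.54 in KO replicates 1 to 3. WT replicate 2 and KO replicate 3, the arrays with high Xist, were the lowest, 0.80 below the nearest other array. The other 4 arrays lay within 0.49 of each other and the genotypes overlapped.

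The secreted factors Sfrp5 and Bmp3 had the widest ranges of the 8 genes. Sfrp5 was at 6.42, 6.21 and 7.15 in WT and 8.06, 7.64 and 6.32 in KO. KO replicates 1 and 2 were the highest arrays, whereas KO replicate 3 lay among the WT values, so the genotypes overlapped. The lowest were again WT replicate 2 and KO replicate 3, here with a gap of 0.094 to the next array, which was WT replicate 1. Bmp3 was at 7.53, 8.72 and 6.58 in WT and 7.80, 8.21 and 8.17 in KO. Its WT animals spanned 2.14 on the log2 scale, which is a 4.41-fold range and covers all 3 KO animals.

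Npr3, the clearance receptor, was steadier. Its values were 11.50, 11.71 and 11.46 in WT and 11.80, 11.52 and 11.13 in KO. KO animals gave both the highest and the lowest value.

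The imprinted genes other than Mest did not share a common pattern. Nnat was at 12.49, 12.13 and 12.49 in WT and 12.63, 12.57 and 12.14 in KO, and WT replicate 2 and KO replicate 3 were lowest, 0.35 below the other 4 arrays, which differed by 0.15. Peg3 was at 9.27, 8.91 and 9.75 in WT and 9.20, 8.95 and 10.02 in KO. The arrays with high Xist were at opposite ends for Peg3, WT replicate 2 the lowest and KO replicate 3 the highest.

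Cdkn1c was at 7.18, 7.25 and 7.34 in WT and 7.40, 7.40 and 7.81 in KO. It was the 1 member of 8 whose genotypes did not overlap, with all 3 KO animals higher. Groups without overlap were found for 4.61% of all genes, 2.08% with KO higher and 2.53% with KO lower. Plagl1 was the least variable member, at 9.12, 9.36 and 9.26 in WT and 9.29, 9.16 and 9.32 in KO.

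**Figure D1:**
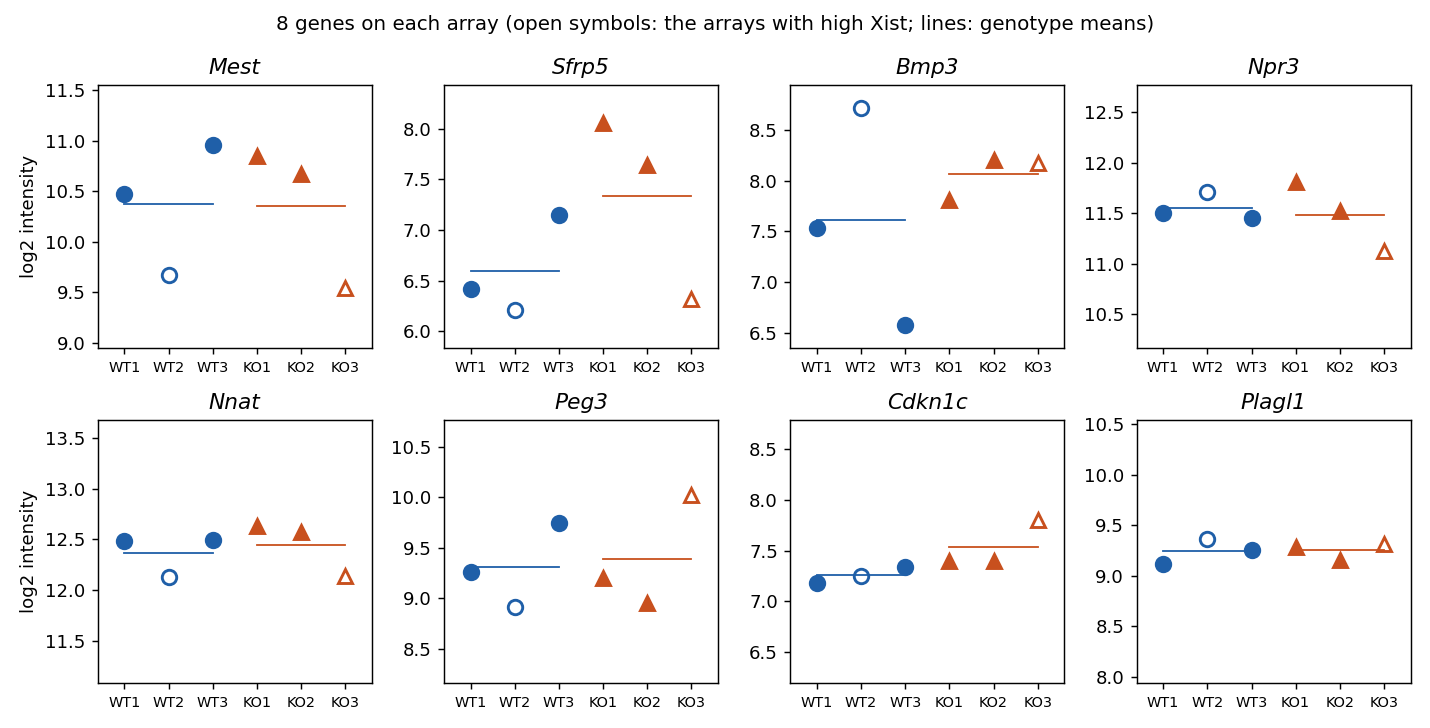
Log2 intensity of the 8 genes (y axis, each panel spanning the same 2.6 log2 units) on the 6 arrays (x axis), with circles for WT, triangles for KO, open symbols for the 2 arrays with high Xist and lines at the genotype means. The open symbols are lowest for Mest and Nnat, at 9.67 and 9.54 and at 12.13 and 12.14, and Cdkn1c alone has every KO point above every WT point.

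Mest, Nnat and Sfrp5 thus had WT replicate 2 and KO replicate 3 as their lowest arrays, 3 of the 8 members. Of all genes 9.67% had these as their lowest arrays and 16.6% as their highest, the latter including Plagl1, by 0.031. These arrays differed from the others in tissue markers too. All 11 skeletal muscle markers and 9 of 10 brown and beige adipocyte markers were highest there. The muscle list had means of 8.50 and 8.54 against 5.57 to 6.37 on the other arrays, and the brown and beige list 7.12 and 7.09 against 5.65 to 5.89. The part of sex, depot and other tissue in the low values of Mest, Nnat and Sfrp5 was not tested. All 8 smooth muscle markers were highest in WT replicate 1 and KO replicate 2, with list means of 10.41 and 10.19 against 7.80 to 9.12. The epididymis list (6 genes) had means of 5.88 and 5.32 there against 3.87 to 4.03, carried by 2 of its genes, Adam7 (10.33 and 9.19 against 3.67 to 4.51) and Defb1 (7.96 and 6.68 against 3.89 to 4.52), while the other 4 lay between 3.29 and 4.91 on every array.

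**Figure D2:**
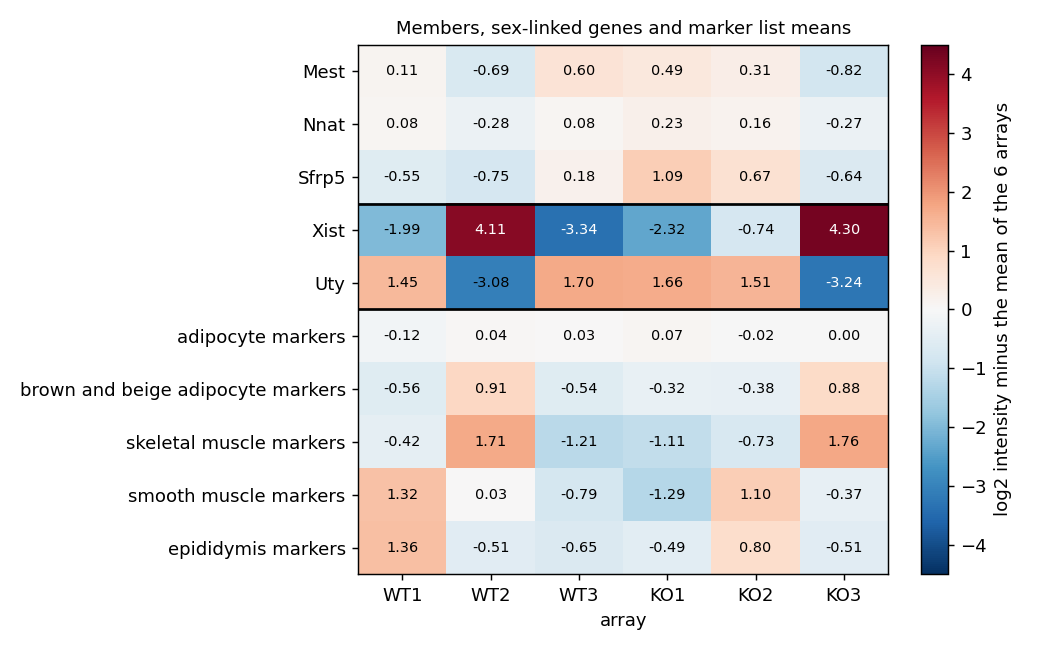
Log2 intensity minus the mean of the 6 arrays (colour and printed value) for Mest, Nnat, Sfrp5, Xist, Uty and the means of 5 marker lists on each array (x axis). Mest is at -0.69 and -0.82 in WT2 and KO3 (replicates 2 and 3), where the skeletal muscle list is at 1.71 and 1.76 and the adipocyte list at 0.043 and -0.00092.

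As a measure of variation between animals, the standard deviation over the 6 arrays was 0.77 for Sfrp5, 0.74 for Bmp3 and 0.61 for Mest on the log2 scale. These exceeded the values of 97.7%, 97.5% and 96.5% of the 19937 genes, whose median was 0.14. The genes compared were not matched for intensity. Peg3 followed with 0.44 and the 94.1 percentile. The spread of Npr3, Nnat and Cdkn1c was 0.23, 0.22 and 0.22, between the 78.3 and 81.2 percentiles, and that of Plagl1 was 0.094, at the 22.2 percentile. Ranges of at least 1 on the log2 scale were found for 4 of the 8 genes, Mest, Sfrp5, Bmp3 and Peg3, and for 7.65% of all genes. Most of this variation lay within genotypes: the standard deviation within genotype was 0.68 for Mest, 0.73 for Sfrp5 and 0.77 for Bmp3. Without the 2 arrays with high Xist the standard deviation fell to 0.21 for Mest and 0.071 for Nnat. Sfrp5 and Bmp3 stayed at 0.70 and 0.69 there, and Peg3 was at 0.33, Npr3 at 0.16, Cdkn1c at 0.10 and Plagl1 at 0.079.

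**Figure D3:**
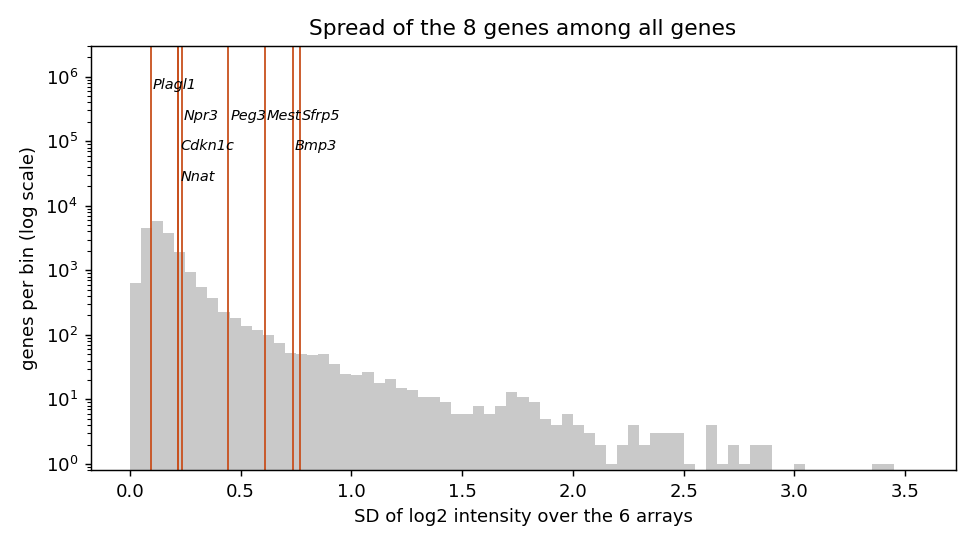
Number of genes (y axis, log scale) by the standard deviation of their log2 intensity over the 6 arrays (x axis), with a line for each of the 8 genes. Sfrp5, Bmp3 and Mest stand at 0.77, 0.74 and 0.61, far above the median of 0.14, while Plagl1 is at 0.094.

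Whether these genes differed between genotypes was tested with limma across the whole array. None of the 8 genes passed an adjusted p of 0.05, and none had an unadjusted p under 0.05 by limma or by the methods' t-test. Of all 34760 probe sets 0.00575% passed the adjusted p and 1.95% had an unadjusted p under 0.05, and of the 19937 genes 0.00502% and 0.838% did. With 3 animals of each genotype the exact permutation test cannot give a p below 0.1.

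Sfrp5 had the largest difference of the 8, with a WT mean of 6.59 ± 0.49 (SD, n = 3) and a KO mean of 7.34 ± 0.90 (SD, n = 3). The KO level was thus 1.68-fold of WT, where the 95% interval ran from 0.757 to 3.72. Its adjusted p by limma was 1.0, and the exact two-sided permutation p was 0.3. The study lists Sfrp5 among its altered genes from these same arrays, so this direction is not independent evidence. Without the 2 arrays with high Xist, Sfrp5 was at 2.09-fold (95% interval 1.18 to 3.72, unadjusted p = 0.0231, adjusted p = 1.0 from limma). Between these 2 arrays KO minus WT was 0.11 on the log2 scale, against 1.06 between the means of the other 4, and the gap between these differences was not tested since each side of the former is 1 animal. In a fit to all 6 arrays with a term for high Xist, the interval of Sfrp5 was 1.01 to 2.80 and the adjusted p 1.0 from limma.

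KO animals had 1.21-fold the WT level of Cdkn1c, with an interval of 0.964 to 1.52. The exact permutation p was 0.1, the smallest possible, and limma's adjusted p was 1.0. Cdkn1c was at 1.10-fold (0.896 to 1.35) without the 2 arrays with high Xist, of which KO replicate 3 was its highest array. With all arrays Bmp3 was at 1.37-fold (0.588 to 3.19), but at 0.958-fold without WT replicate 3, its lowest array. Without WT replicate 2, its highest, Bmp3 was at 2.01-fold (unadjusted p = 0.0195, adjusted p = 1.0 from limma). Both arrays stand out by the values of Bmp3 itself, so this p is not evidence of a genotype difference.

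The remaining 5 genes lay close to equal levels on average. Mest was at 0.988-fold with a wide interval of 0.468 to 2.08, so that a 2-fold change in either direction lies inside it. With the term for high Xist this interval narrowed to 0.757 to 1.29 around the same estimate. Npr3 was at 0.953-fold (0.703 to 1.29), Nnat at 1.06-fold (0.791 to 1.41) and Peg3 at 1.06-fold (0.611 to 1.83). Plagl1 had the narrowest interval of the 8, 0.848 to 1.19 around 1.0-fold. The direction of Peg3 turned with the arrays used, since it was at 0.741-fold (0.499 to 1.10) without the 2 arrays with high Xist, of which KO replicate 3 was its highest array and WT replicate 2 its lowest.

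**Figure D4:**
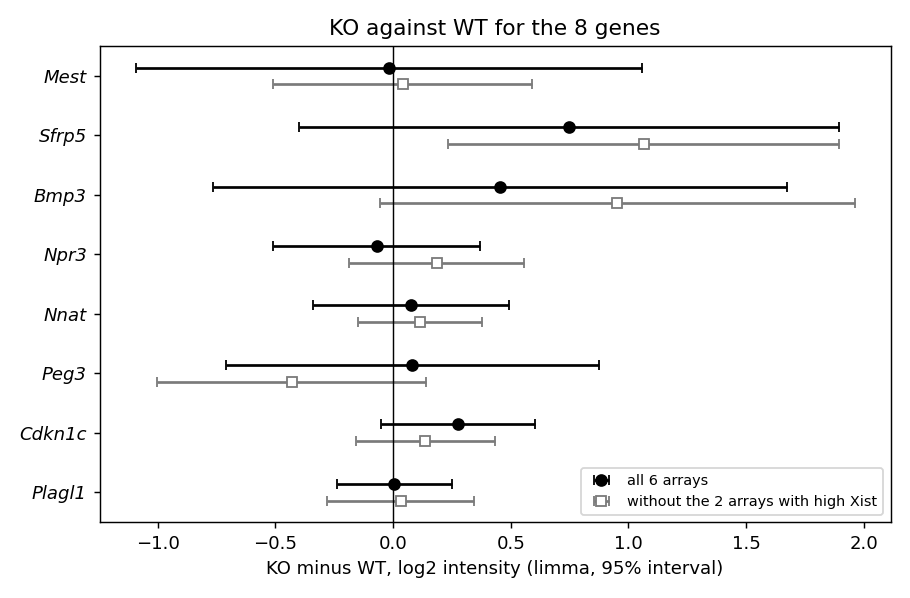
KO minus WT difference of log2 intensity from limma (x axis) with its 95% interval for the 8 genes, for all 6 arrays (filled circles) and without the 2 arrays with high Xist (open squares). With all arrays every interval includes 0, and Mest has its estimate at -0.018 with an interval of -1.09 to 1.06.

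Of the genes that lie near the imprinted members in the RefSeq order, Zim1 varied most between arrays. Near Mest, Copg2 ranged over 9.24 to 9.38 and Klf14 over 6.93 to 7.34, with Klf14 highest in WT replicate 2 and KO replicate 3, where Mest was lowest. Blcap, the gene that holds Nnat in an intron, was at 9.07 to 9.45. Zim1, the maternally expressed neighbour of Peg3, reached 7.88 in KO replicate 3 against 5.46 to 6.25 in the other 5 animals. For both Peg3 and Zim1 the highest array was thus KO replicate 3 and the lowest were WT replicate 2 and KO replicate 2, while Usp29, also near Peg3, was dim and at 3.62 to 3.92. Between Cdkn1c and Ascl2 lie 9 annotated genes, and between Cdkn1c and Osbpl5 13. KO replicate 3, where Cdkn1c stood 0.41 above its mean, was the highest array for Ascl2, at 4.76 against 4.75 in WT replicate 3. Ascl2 was dim, at 4.33 to 4.76. KO replicate 3 was not the highest array for Slc22a18, Osbpl5 or Phlda2, the last at 5.58 against 5.59 in WT replicate 2.

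Mest also carries the microRNA gene Mir335 within its span, which has a probe set of its own. Both mature forms are shown, from RefSeq (GRCm38.p6), with the seed (bases 2 to 8) in capitals, because the microRNA lies inside a gene that the results turn on.
mmu-miR-335-5p: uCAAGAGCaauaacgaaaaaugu
mmu-miR-335-3p: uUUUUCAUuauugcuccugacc

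They lie at chr6:30741314-30741336 and chr6:30741354-30741375 on the plus strand. The Mir335 probe set was dim, at 4.92, 4.62 and 4.74 in WT and 4.83, 4.52 and 4.62 in KO, below the median mean log2 intensity of all probe sets (6.10). KO replicate 2 was its lowest array, where Mest was at 10.67. Whether the probe set reads the precursor or the mature forms was not tested.

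**Figure D5:**
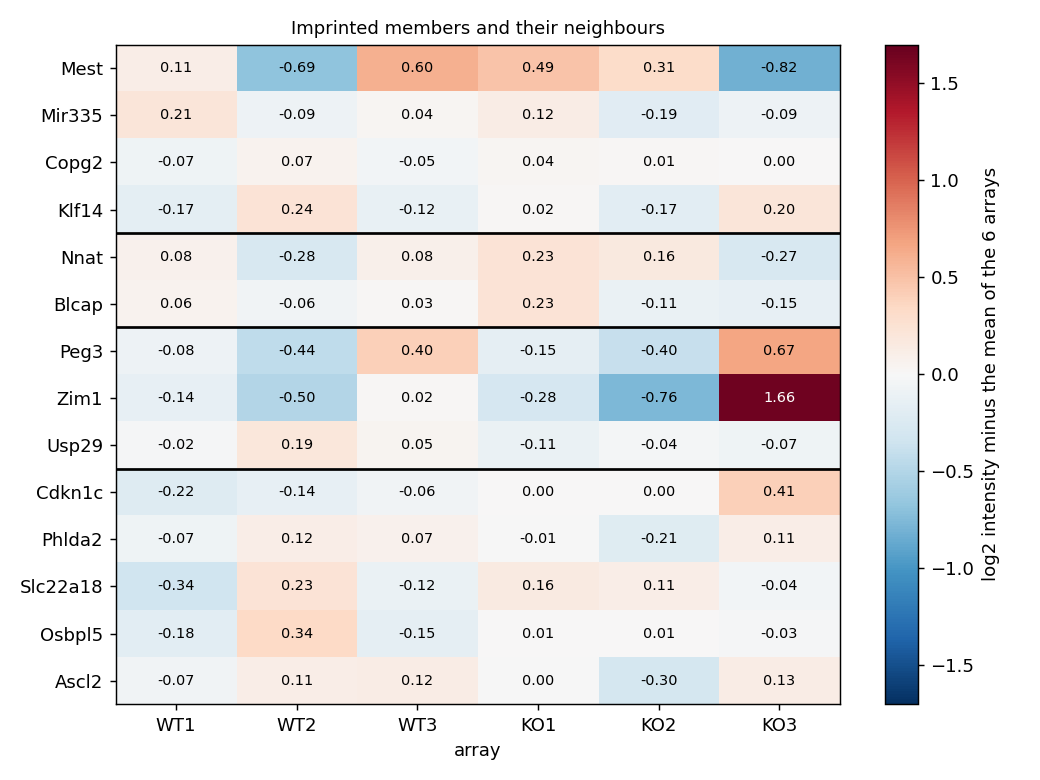
Log2 intensity minus the mean of the 6 arrays (colour and printed value) on each array (x axis) for the imprinted members and their neighbours, in blocks for Mest, Nnat, Peg3 and Cdkn1c. Peg3 and Zim1 are both highest in KO3, at 0.67 and 1.66, and Copg2 stays between -0.070 and 0.066 where Mest spans -0.82 to 0.60.

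The pattern of Mest over the 6 arrays was most like those of Hsd11b1, which regenerates active glucocorticoid, Prodh, a proline dehydrogenase, the tetraspanin gene Tspan5, the phosphodiesterase gene Pde11a and Meig1, with Pearson's r of 0.991, 0.986, 0.985, 0.976 and 0.974. Hsd11b1 had values of 7.58 and 6.99 on the arrays with high Xist and of 8.73 to 9.60 on the rest. Among the 840 candidate genes, with a mean log2 intensity of at least 6 and a range of at least 1, 60 had an r above 0.9 with Mest. Sfrp5 was most like Ndrg1, the channel gene Trpv2, Lrrc46, Smim24 and Mturn, with r of 0.976, 0.967, 0.954, 0.942 and 0.933, and 12 candidates were above 0.9. For Ndrg1, as for Sfrp5, KO replicates 1 and 2 were the highest arrays, at 10.43 and 9.99, with WT replicate 3 next at 9.97. These r describe 6 arrays that fall into 2 and 4 by Xist, and carry no test. Nor are the other 4 arrays uniform, since over all probe sets the arrays were most alike in pairs across genotypes. WT replicate 3 with KO replicate 1 had an r of 0.991, WT replicate 1 with KO replicate 2 0.990 and WT replicate 2 with KO replicate 3 0.989. Every other pair was at 0.986 or below.

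None of 151 pathway genes passed an adjusted p of 0.05 by limma or by the methods' t-test. In limma 2 of them had an unadjusted p under 0.05, where 0.838% of all genes did. These were the proliferation genes Mki67 (0.789-fold, 95% interval 0.639 to 0.973) and Top2a (0.764-fold, 0.600 to 0.972). Both were lower in all 3 KO animals than in any WT animal. Groups without overlap and with KO lower were found for 5 of the 151 genes and for 2.53% of all genes. With KO higher they were found for 0 of the 151 and for 2.08% of all genes. Of the kinase inhibitor genes beside Cdkn1c, Cdkn2c was at 0.908-fold (0.769 to 1.07).

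Of 38 other imprinted genes 18 were higher and 20 lower in KO, with a median log2 difference of -0.000615 against 0.00085 for all genes (10036 higher, 9901 lower). The smallest p-values belonged to Dio3 (0.848-fold, 0.711 to 1.01), Usp29 (0.905-fold, 0.778 to 1.05) and Rtl1 (0.892-fold, 0.729 to 1.09). Of 47 other Wnt pathway genes 13 were higher and 34 lower, with a median of -0.034. Sfrp2, a paralogue of Sfrp5, was at 0.734-fold (0.486 to 1.11), and the Wnt antagonists Dkk3 and Dkk1 at 1.23-fold (0.925 to 1.64) and 0.870-fold (0.714 to 1.06). Of 34 other BMP pathway genes 19 were higher and 15 lower (median 0.015), with the BMP antagonist Chrdl1 at 1.38-fold (0.947 to 2.01), the receptor Bmpr2 at 1.07-fold (0.937 to 1.23) and Fstl1 at 0.870-fold (0.647 to 1.17). Of 13 other natriuretic peptide genes 7 were higher and 6 lower (median 0.0048), among them the peptidase gene Mme at 1.15-fold (0.772 to 1.71) and the cGMP-dependent kinases Prkg2 and Prkg1 at 1.05-fold (0.903 to 1.21) and 1.09-fold (0.779 to 1.52). Of 14 other cell cycle genes 4 were higher and 10 lower (median -0.049). Of 6 other fat expansion genes 3 were higher and 3 lower (median 0.0052), including Nkd1 at 1.12-fold (0.776 to 1.63), Mmp12 at 0.941-fold (0.661 to 1.34) and leptin (Lep) at 1.02-fold (0.769 to 1.36).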

How the data were processed

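RNA was amplified with the Ovation Pico WTA system, labelled with biotin and hybridised to Mouse Gene 1.0 ST arrays, and the authors processed the scans with GenePattern modules. The deposited values are linear intensities of probe sets. RMA is named in the submitters' processing notes. It corrects background, quantile normalizes arrays and summarises probes, and so can narrow differences between arrays. The sources used here do not give the genome build of the probe sets. Precision is limited by the number of arrays.

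For 34760 probe sets the log2 of the intensity was fitted with genotype as the 1 factor in limma 3.58.1 under R 4.3.3 (lmFit, eBayes), with Benjamini-Hochberg adjustment over all probe sets. Adjusted p-values are from this fit. Folds are log2 differences turned back to the linear scale, with 95% intervals. The methods' t-test (Student) and an exact permutation test were run beside it. Nothing says that numbered replicates are paired. The p-values of limma and of the t-test set the difference of the genotype means against the spread between animals within a genotype. In limma that spread is in part shared over probe sets.

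Genes were named from the platform annotation (21640 probe sets with 1 symbol), taking the probe set with the highest mean. The 8 genes and all lists were chosen with earlier results of these data known. Named are the 8 genes, up to 3 genes with the smallest p in each pathway list, and the 5 genes most like Mest and Sfrp5. Mir335 and the neighbours were chosen after their values were seen. The fitting procedure was tested on simulated data. Alternatives were other normalizations, filters, probe set rules, variance models, array weights, a replicate block, a term for high Xist, and leaving out arrays.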

Additional observations from a re-analysis of the deposited data

How the results depend on the processing

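The number of the 8 genes past an adjusted p of 0.05 was 0 in limma with all arrays and stayed 0 under all 18 alternatives, as did that of the 151 pathway genes. At an unadjusted p under 0.05 it was 0 of the 8 with all arrays and at most 1 under the alternatives (Sfrp5 in 3, Bmp3 in 1). In the fits concerned 1 to 4 of the 151 pathway genes were under it too. The share over all genes was not counted in those fits. Sfrp5 and Cdkn1c kept their direction under all 18, at 1.31-fold to 2.39-fold and 1.10-fold to 1.27-fold. Leaving out or weighting arrays could not turn Cdkn1c, whose genotypes did not overlap. Several alternatives also change only the p and keep the estimate of the main fit. Without single arrays the log2 difference ran from -0.37 to 0.39 for Mest (above 0 with KO replicate 3 or either of WT replicates 1 and 3 left out), -0.062 to 1.01 for Bmp3 (below 0 without WT replicate 3), -0.23 to 0.11 for Npr3 (above 0 without WT replicate 2 or KO replicate 3), -0.041 to 0.23 for Nnat (below 0 without WT replicate 2 or KO replicate 1), -0.23 to 0.30 for Peg3 (below 0 without WT replicate 2 or KO replicate 3) and -0.058 to 0.063 for Plagl1 (below 0 with WT replicate 1 or either of KO replicates 1 and 3 left out). With array weights Npr3 was at 0.062, Peg3 at -0.24 and Plagl1 at -0.015. Without the 2 arrays with high Xist, Mest was at 0.040, Npr3 at 0.19 and Peg3 at -0.43. The cause of these turns was not tested. Deviations of same-numbered arrays from their genotype means correlated at -0.15, -0.37 and -0.09. This cannot decide whether the numbers are paired, because each mean is of 3 arrays that differ in tissue markers. With the replicate block 0 of the 8 genes passed. Correlations between members and their 4 alternatives were not run because the arrays fall into 2 and 4 by Xist. Signal over background could not be judged without the scanner files, which were not used here.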

Other observations

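Of the 151 other pathway genes 25 had WT replicate 2 and KO replicate 3 as their lowest arrays and 28 as their highest, where 9.67% and 16.6% of all genes did. In the Wnt list these were 7 and 9 of 47 genes, and in the BMP list 9 and 4 of 34. The remaining genes of both lists, among them the secreted antagonists Sfrp2, Dkk3, Nog and Chrdl1, had neither. The following genes were chosen after their values were seen. Sfrp4, a paralogue of Sfrp5, was at 8.54 and 9.21 on these arrays against 6.01 to 6.20 on the other 4, opposite to Sfrp5. Sfrp1 was at 7.24 and 7.47 against 8.50 to 8.89. Gdf10, a relative of Bmp3 in sequence, was at 7.94 and 8.32 against 8.92 to 9.31, and the BMP-binding protein gene Bmper at 6.99 and 7.23 against 7.66 to 8.51. Of 38 imprinted genes outside the 8, 10 had these arrays as their highest, 3 as their lowest (Gatm, Rasgrf1 and Sfmbt2) and the majority neither. Meg3, at 9.82 and 9.99 against 9.24 to 9.47, is an example of the former, and Gatm, at 7.75 and 7.66 against 7.98 to 8.96, of the latter.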
